A study of Homo sapiens with 30 samples.

Results

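The highest dose of an ethanol extract of the herbal formula Yijin-tang was set against its lowest dose in HT29 cells. These are an established human line from a colorectal adenocarcinoma. The 6 libraries compared were the 3 titled as the high dose (500 µg/mL) and the 3 titled as the low dose (20 µg/mL), chosen by those titles from 30 libraries in all. Each library came from RNA of cells kept for 24 h with the extract. Further groups of the same cells and the same time were used beside them: Yijin-tang at 100 µg/mL (n = 3), the formula Soshiho-tang at 20, 100 and 500 µg/mL (n = 3 per dose) and the solvent alone (n = 3). Soshiho-tang was likewise given as an ethanol extract. The solvent DMSO was given as 0.1% in the labels of the vehicle libraries and as 2% in the design text. The labels of the extract libraries list no DMSO level, so its level, and whether all groups shared it, is unsettled. The design text also speaks of lower doses for extracts that proved toxic, whereas the labels list the same 3 doses throughout, and those are printed here. The labels do not say whether replicates were separate cultures, and the p-values therefore cover the spread among these particular libraries, which may be technical.

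Several nuclear receptors and stress sensors let gut epithelial cells respond to plant compounds. The aryl hydrocarbon receptor (AHR) binds flat aromatic ligands and turns on detoxifying enzymes, NRF2 is freed from its inhibitor by electrophiles and turns on antioxidant genes, and the liver X receptors (LXR) bind oxysterols and turn on genes that carry cholesterol out of the cell. SREBP2 acts on the other side of that balance: it turns on cholesterol synthesis when membrane sterol is low and is held back when sterol is plentiful.

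The 6 libraries held 28855180, 19565420 and 25780250 counts at 500 µg/mL, against 24081659, 27035727 and 23405846 counts at 20 µg/mL. Mitochondrially encoded genes took 11.05% ± 1.16 of counts at 500 µg/mL and 11.99% ± 1.07 at 20 µg/mL (SD, n = 3 each), a difference with an exact 2-sided permutation p of 0.3, where 3 against 3 cannot go below 0.1. The 10 epithelial markers summed to 12530 to 12720 CPM (counts per 1000000 counts, after TMM scaling) at 500 µg/mL and to 11860 to 12280 CPM at 20 µg/mL. PTPRC and CD3E, which define leukocytes and T cells, had no count in any of the 6 libraries, and the lysozyme gene LYZ, at 1614 to 1642 CPM at 500 µg/mL and 1568 to 1582 CPM at 20 µg/mL, made up nearly all of the summed level of the 8 immune markers. In bulk RNA, fewer cells of a kind and less RNA per cell cannot be told apart.

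At 500 µg/mL of Yijin-tang 295 of 15882 genes tested differed from 20 µg/mL (1.86%), of which 115 were higher (0.724%) and 180 were lower (1.13%), at an adjusted p under 0.05 by edgeR's quasi-likelihood test. The genes that rose were led by the AHR target CYP1A1 and the sterol exporter ABCG1, and the list with the most genes that fell was cholesterol synthesis. Most changes were small. At least 2-fold rises were seen in 3 genes, CYP1A1, ABCG1 and the alkaline phosphatase ALPG (log2 fold change 1.20 ± 0.30), and 1 gene, the alcohol dehydrogenase ADH1C, fell by as much (-1.04 ± 0.25), the last 2 near or under 2 CPM and named after their values were seen. The median log2 fold change was 0.25 among the genes that rose and -0.32 among those that fell. Of the 295 genes, 294 had no overlap between the libraries of the 2 doses, against 3651 of all genes tested (23%). Protein-coding genes made up 98.3% of the genes that rose and 95% of those that fell, against 79.7% of all genes tested, and the genes that rose had a median level of 80.4 CPM, against 23.9 CPM for those that fell and 17.1 CPM for all.

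**Figure D1:**
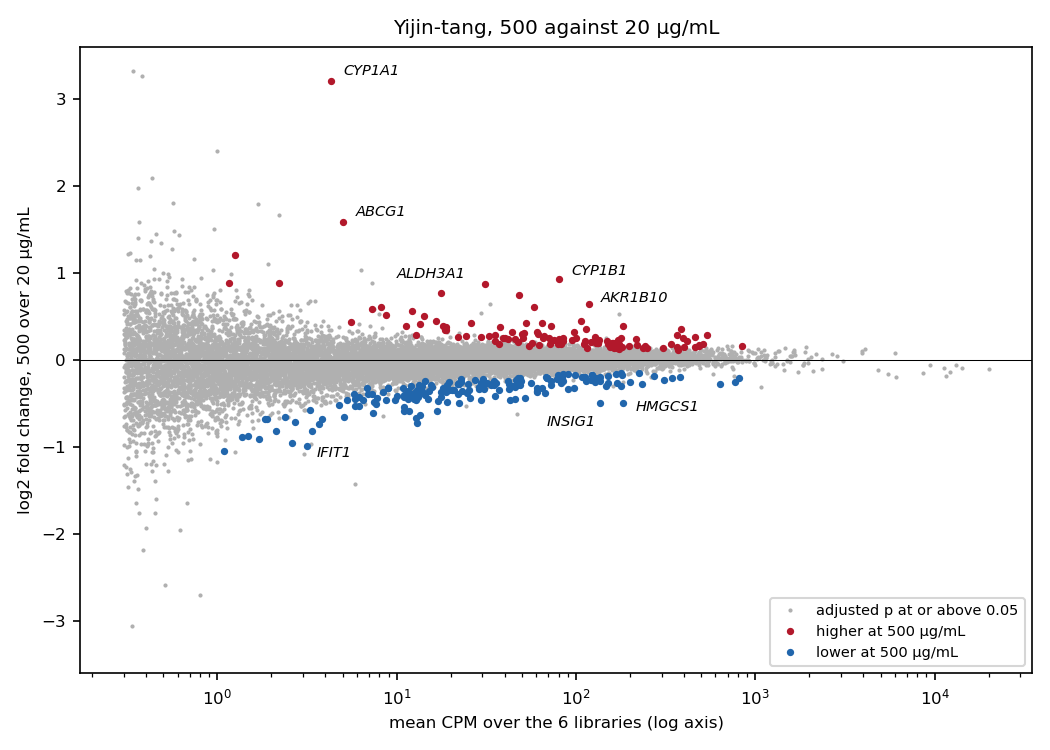
Log2 fold change at 500 over 20 µg/mL of Yijin-tang against the mean CPM over the 6 libraries (log axis), with 1 point per gene; genes with a mean at or under 0.3 CPM are not drawn, nor are 3 genes beyond 3.6 on the log2 axis, none of which passed the test. Red points are the 115 genes that were higher and blue points the 180 that were lower at an adjusted p under 0.05, and all but a few lie within 1 unit of 0.

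The count changed with the libraries in the fit. The 21 libraries in the fit included vehicle, whose library names set them apart from the extract libraries, and without vehicle in the fit 726 genes passed, among them all 295. Leaving out replicate 1, 2 or 3 at 500 µg/mL gave 147, 203 and 173 genes, and leaving out replicate 1, 2 or 3 at 20 µg/mL gave 222, 156 and 175.

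Genes of the AHR list that passed the test were all higher. Of its 12 genes tested, 7 were higher at 500 µg/mL, 5 did not pass and none was lower (4 to 6 were higher with 1 library left out), with a median log2 fold change of 0.355, against 0.000928 over all genes tested. The shares over all genes tested were 0.724% higher and 1.13% lower. CYP1A1, the cytochrome P450 most tightly under AHR control, had 9.41, 6.48 and 7.25 CPM at 500 µg/mL, against 0.708, 1.04 and 0.756 CPM at 20 µg/mL. Every library at the high dose was thus several fold above every library at the low dose, and the log2 fold change was 3.21 ± 0.41 (SE, adjusted p = 0.000582). At 100 µg/mL CYP1A1 averaged 2.06 ± 1.21 CPM and with vehicle 0.596 ± 0.0878 CPM (SD, n = 3 each), so the middle dose lay between the ends with a wide spread. ALDH3A1, an aldehyde dehydrogenase, had 44.6, 37.1 and 38.5 CPM at 500 µg/mL, against 22.7, 21.8 and 21.2 CPM at 20 µg/mL, a log2 fold change of 0.88 ± 0.11 (adjusted p = 0.000226). UGT1A6, a phenol glucuronosyltransferase, had 62.5, 57.7 and 61.0 CPM at 500 µg/mL, against 47.9, 44.3 and 43.1 CPM at 20 µg/mL, a log2 fold change of 0.42 ± 0.06 (adjusted p = 5.24e-05), and its exons overlap those of other UGT1A genes, so its share of their reads is uncertain. In both genes the libraries of the 2 doses did not overlap.

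TIPARP, an ADP-ribosyltransferase that dampens AHR, had 122, 122 and 126 CPM at 500 µg/mL, against 89.985, 92.4 and 89.2 CPM at 20 µg/mL, a log2 fold change of 0.45 ± 0.09 (adjusted p = 0.0106). CYP1B1, another P450 of the family, had 113, 97.0 and 105 CPM at 500 µg/mL, against 57.8, 53.7 and 54.2 CPM at 20 µg/mL, a log2 fold change of 0.93 ± 0.21 (adjusted p = 0.036), and with the replicate number as a block the adjusted p was 0.0599. Its high-dose libraries all lay above its low-dose libraries. ALDH1A3, which makes retinoic acid, had a log2 fold change of 0.64 and did not pass (adjusted p = 0.0945). The receptor's own list, with its partners and repressor, had 6 genes tested and none past the test.

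The promoters of CYP1A1 and UGT1A6 are shown because the AHR complex is known to bind a short element with the core GCGTG. Each sequence gives the 250 bases before the gene's start as annotated by RefSeq on GRCh38.p14, 5′ to 3′, with matches in capitals (GCGTG in CYP1A1, the longer TNGCGTG in UGT1A6).
CYP1A1, chr15:74725529-74725778, minus strand: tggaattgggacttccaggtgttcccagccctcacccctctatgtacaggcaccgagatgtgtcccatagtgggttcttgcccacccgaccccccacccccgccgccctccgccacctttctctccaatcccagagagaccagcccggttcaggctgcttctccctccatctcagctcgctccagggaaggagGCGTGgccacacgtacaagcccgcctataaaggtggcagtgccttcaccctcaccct
UGT1A6, chr2:233691452-233691701, plus strand: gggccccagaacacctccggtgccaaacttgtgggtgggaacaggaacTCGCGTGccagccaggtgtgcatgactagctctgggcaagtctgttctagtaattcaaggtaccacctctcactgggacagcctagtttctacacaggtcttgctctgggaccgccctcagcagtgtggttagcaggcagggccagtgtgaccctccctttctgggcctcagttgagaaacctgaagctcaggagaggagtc
The core GCGTG, read on both strands, occurred in the same window of 31.9% of all 27305 RefSeq promoters, of 44.7% of the promoters of genes tested and of 6 of the 9 AHR-list genes with a promoter in the table. It was also in 34 of the 96 promoters matched to genes that rose and in 15 of 18 of the cholesterol list. The longer form TNGCGTG, which contains the core, occurred in 4.53% of all promoters, in 6.06% of those of genes tested, in 2 of those 9, and in 5 of the 96 promoters matched to genes that rose. A match describes the letters in this window only.

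LXR targets were higher at 500 µg/mL in 4 of 8 genes tested and lower in none, with a median log2 fold change of 0.252. Of all genes tested, 0.724% were higher and 1.13% lower. ABCG1, a transporter that moves sterol out of cells, had 8.21, 7.62 and 6.87 CPM at 500 µg/mL, against 2.33, 2.64 and 2.56 CPM at 20 µg/mL. Every high-dose library lay far above every low-dose library, with a log2 fold change of 1.59 ± 0.13 (adjusted p = 1.08e-08). At 100 µg/mL ABCG1 averaged 2.86 ± 0.354 CPM and with vehicle 1.83 ± 0.343 CPM (SD, n = 3 each), and the log2 fold change at 500 over 100 µg/mL was 1.41 (adjusted p = 1.17e-07). MYLIP, a ubiquitin ligase, had 18.2, 17.995 and 21.03 CPM at 500 µg/mL, against 14.4, 14.1 and 13.4 CPM at 20 µg/mL, a log2 fold change of 0.45 ± 0.07 (adjusted p = 0.000329). Its mean at 100 µg/mL, 14.1 ± 0.875 CPM, was at the level of the low dose. LPCAT3, which remodels phospholipids, had a log2 fold change of 0.25 ± 0.04 (adjusted p = 0.00148), and NR1H3, which encodes LXRα itself, had 0.24 ± 0.06 (adjusted p = 0.0144). ABCA1, the exporter that loads nascent HDL, had 8.9997, 7.88 and 7.41 CPM at 500 µg/mL, against 6.53, 6.51 and 5.504 CPM at 20 µg/mL. Its libraries did not overlap, and it did not pass (log2 fold change 0.39 ± 0.13, adjusted p = 0.16).

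Cholesterol synthesis was lower at most of its steps. Of 25 genes tested, 16 were lower at 500 µg/mL and none was higher, 24 had a negative log2 fold change, and the median was -0.237. Over all 15882 genes tested, 1.13% were lower and 7879 had a negative value. HMGCS1, the synthase of an early step, had 144, 156 and 156 CPM at 500 µg/mL, against 216, 214 and 209 CPM at 20 µg/mL, a log2 fold change of -0.49 ± 0.06 (adjusted p = 5.56e-05). INSIG1, the membrane protein that retains the SREBP complex, had 110.4, 112 and 118 CPM at 500 µg/mL, against 157, 160.0 and 162 CPM at 20 µg/mL, a log2 fold change of -0.49 ± 0.05 (adjusted p = 5.83e-07). Both genes stood well apart between the doses in all 6 libraries.

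SQLE, which makes squalene epoxide, had 562, 575 and 585 CPM at 500 µg/mL, against 692, 694 and 703 CPM at 20 µg/mL, a log2 fold change of -0.28 ± 0.04 (adjusted p = 0.00013). CYP51A1, the lanosterol demethylase, had 148, 157 and 158 CPM at 500 µg/mL, against 186, 183 and 184 CPM at 20 µg/mL, a log2 fold change of -0.26 ± 0.04 (adjusted p = 0.000311). The libraries of both genes were tightly grouped by dose. Further along, LSS, TM7SF2 and MSMO1, which close and trim the sterol rings, had log2 fold changes of -0.33, -0.33 and -0.36 (adjusted p = 0.00124, 0.00057 and 0.000426). PMVK, with a log2 fold change of 0.11 (adjusted p = 0.726), was the 1 gene of the list above 0. Among 13 genes of fatty acid synthesis only ACSS2, which makes acetyl-CoA from acetate, passed, with 10.2, 8.97 and 10.0 CPM at 500 µg/mL, against 16.4, 15.5 and 16.6 CPM at 20 µg/mL (log2 fold change -0.72 ± 0.11, adjusted p = 0.000525). SREBF1, an LXR target that drives fatty acid synthesis, had 166, 161 and 151 CPM at 500 µg/mL, against 136, 134 and 132 CPM at 20 µg/mL, and did not pass (adjusted p = 0.106), but did with the replicate block (adjusted p = 0.00906).

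Vehicle levels were measured for the same genes. HMGCS1 averaged 168 ± 12.5 CPM with vehicle, 213 ± 3.72 CPM at 20 µg/mL, 208 ± 6.33 CPM at 100 µg/mL and 152 ± 6.81 CPM at 500 µg/mL (SD, n = 3 each). INSIG1 averaged 124 ± 5.05, 159.9 ± 2.51, 146 ± 1.73 and 113 ± 4.13 CPM in the same order of groups. In both genes the mean at 500 µg/mL was thus nearer to that of vehicle than the mean at 20 µg/mL was. The vehicle libraries carry names from another set than the extract libraries, and the part of that in these levels was not tested.

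**Figure D2:**
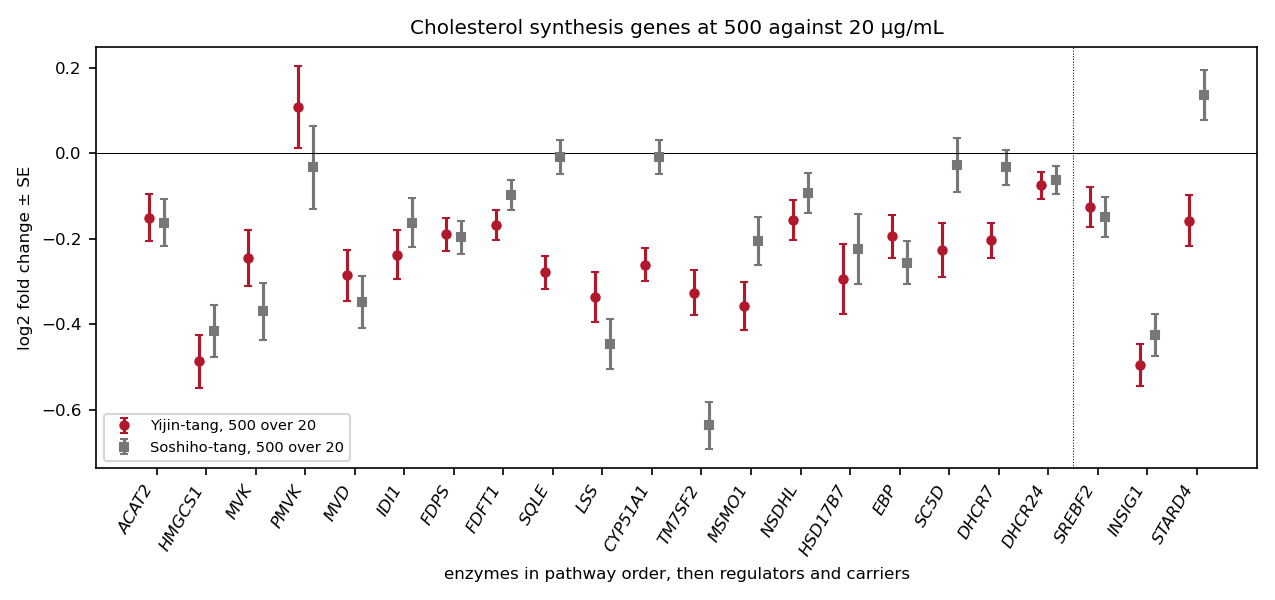
Log2 fold change ± SE at 500 over 20 µg/mL for 22 of the 25 genes of the cholesterol list, in pathway order with regulators and carriers right of the dotted line; red circles are Yijin-tang and grey squares Soshiho-tang (3 libraries per dose). All Yijin-tang values drawn but that of PMVK lie below 0, and SQLE and CYP51A1 lie at -0.28 and -0.26 with Yijin-tang and at -0.01 each with Soshiho-tang.

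NRF2 targets rose in 12 of 25 genes tested and fell in none, with a median log2 fold change of 0.272 and 24 positive values. Among all 15882 genes tested, 0.724% rose and 7999 values were positive. AKR1B10, an aldo-keto reductase, had 150.3, 137 and 143 CPM at 500 µg/mL, against 93.5, 92.2 and 89.9 CPM at 20 µg/mL, and its log2 fold change of 0.64 ± 0.05 had the smallest adjusted p of the list (4.59e-09). AKR1C2 and AKR1C3, steroid-reducing enzymes of the same family, had log2 fold changes of 0.78 ± 0.09 and 0.61 ± 0.10 (adjusted p = 1.14e-05 and 0.00196). The AKR1C genes are near-identical copies, so how reads were split among them is uncertain. TXNRD1, thioredoxin reductase, had 449, 431 and 428 CPM at 500 µg/mL, against 359.9, 328 and 329 CPM at 20 µg/mL, a log2 fold change of 0.36 ± 0.06 (adjusted p = 0.000406). GCLC, the catalytic subunit of glutathione synthesis, had 111, 107 and 107 CPM at 500 µg/mL, against 87.0, 85.9 and 87.3 CPM at 20 µg/mL, a log2 fold change of 0.32 ± 0.05 (adjusted p = 0.000226). These libraries fell into 2 groups by dose with no overlap. GCLM, SRXN1, GSR and NQO1, further antioxidant enzymes, had log2 fold changes of 0.39, 0.27, 0.26 and 0.29, with adjusted p from 0.000454 to 0.00396. HMOX1, heme oxygenase, had 12.3, 11.8 and 11.6 CPM at 500 µg/mL, against 10.2, 9.45 and 8.91 CPM at 20 µg/mL, and did not pass (log2 fold change 0.32 ± 0.09, adjusted p = 0.067). SLC7A11, the cystine importer, passed with a log2 fold change of 0.39 (adjusted p = 0.0409), and its adjusted p was 0.0609 with the replicate block. SQSTM1, an autophagy receptor, was the 1 negative member, at -0.05 (adjusted p = 0.63).

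The promoter of TXNRD1, on the same assembly and over the same 250 bases, is shown for its match to the antioxidant element TGACNNNGC, the sequence bound by NRF2 with small MAF proteins, with the match in capitals.
TXNRD1, chr12:104215529-104215778, plus strand: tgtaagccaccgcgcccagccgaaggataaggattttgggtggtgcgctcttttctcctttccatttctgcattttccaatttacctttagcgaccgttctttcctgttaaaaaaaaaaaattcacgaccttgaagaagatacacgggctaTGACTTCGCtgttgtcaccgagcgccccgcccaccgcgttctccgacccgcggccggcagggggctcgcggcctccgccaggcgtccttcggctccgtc
The element, on either strand, occurred in 11% of all promoters, in 12.2% of those of genes tested, in 4 of 18 NRF2-list genes with a promoter in the table, and in 13 of the 96 promoters of genes that rose. It was also in 4 of 21 promoters of the interferon list. The sterol regulatory element TCACNCCAC, searched in the same way, occurred in 1 of 18 promoters of the cholesterol list. It was in 3 of the 137 promoters of genes that fell and in 0.861% of those of genes tested.

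Interferon-stimulated genes were lower at 500 µg/mL in 4 of 27 tested and higher in none, with a median log2 fold change of -0.179. The share lower over all genes tested was 1.13%. Without vehicle libraries in the fit 8 were lower, with only the 6 libraries compared 7 were, and 2 were without replicate 2 at 20 µg/mL. Over all genes, 358, 441 and 100 were lower in those fits, against 180 in the main fit. IFIT1, an antiviral RNA-binding protein, had 2.10, 2.13 and 2.07 CPM at 500 µg/mL, against 3.95, 4.13 and 4.45 CPM at 20 µg/mL, a log2 fold change of -0.99 ± 0.16 (adjusted p = 0.000624). IFITM3, which blocks viral entry, had 6.52, 6.17 and 6.37 CPM at 500 µg/mL, against 8.82, 8.85 and 9.33 CPM at 20 µg/mL, a log2 fold change of -0.50 ± 0.10 (adjusted p = 0.00455). IRF9, the DNA-binding subunit of the interferon-activated complex, had 7.52, 7.00 and 7.56 CPM at 500 µg/mL, against 9.99, 10.4 and 10.1 CPM at 20 µg/mL, a log2 fold change of -0.46 ± 0.10 (adjusted p = 0.00847). All 3 genes had every high-dose library under every low-dose library. IFI44 also fell, by 0.57 on the log2 scale (adjusted p = 0.0396), a call lost when any 1 of the 6 libraries was left out. DDX60, a helicase named through its size of change, had 2.38, 2.23 and 2.73 CPM at 500 µg/mL, against 5.04, 3.91 and 4.03 CPM at 20 µg/mL, a log2 fold change of -0.81 ± 0.19 (adjusted p = 0.0175). OAS2, which makes the activator of RNase L, had a log2 fold change of -0.78 and did not pass (adjusted p = 0.0968), but did with the replicate block (adjusted p = 0.0177). These genes are near the low end of the counts, and at 100 µg/mL IRF9 averaged 7.70 ± 1.09 CPM, already at its high-dose level.

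Promoters of 3 of the genes that fell are shown because interferon-stimulated genes are known by an element of GAAA, any 2 bases and GAAA again, searched on both strands and in capitals below, again over the 250 bases before the start.
IFIT1, chr10:89392373-89392622, plus strand: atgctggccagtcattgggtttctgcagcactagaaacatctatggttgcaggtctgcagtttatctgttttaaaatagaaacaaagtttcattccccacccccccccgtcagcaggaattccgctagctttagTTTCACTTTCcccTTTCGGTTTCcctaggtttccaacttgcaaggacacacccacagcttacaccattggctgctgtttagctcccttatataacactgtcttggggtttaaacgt
IFITM3, chr11:320861-321110, minus strand: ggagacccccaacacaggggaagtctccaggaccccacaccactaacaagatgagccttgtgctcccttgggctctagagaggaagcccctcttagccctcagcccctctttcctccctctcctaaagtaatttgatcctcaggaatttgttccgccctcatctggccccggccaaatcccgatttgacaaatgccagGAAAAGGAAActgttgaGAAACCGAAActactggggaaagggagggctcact
IFI44, chr1:78649539-78649788, plus strand: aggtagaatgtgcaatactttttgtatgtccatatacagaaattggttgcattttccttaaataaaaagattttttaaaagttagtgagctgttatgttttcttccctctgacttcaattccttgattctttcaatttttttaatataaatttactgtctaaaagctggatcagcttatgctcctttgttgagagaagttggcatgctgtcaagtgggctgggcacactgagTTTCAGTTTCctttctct
IFIT1 and IFITM3 each had 2 matches and IFI44 had 1. The element occurred in 13 of 21 interferon-list genes with a promoter in the table, in 3.07% of all promoters, in 2.22% of those of genes tested, and in 7 of the 137 promoters matched to genes that fell.

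**Figure D3:**
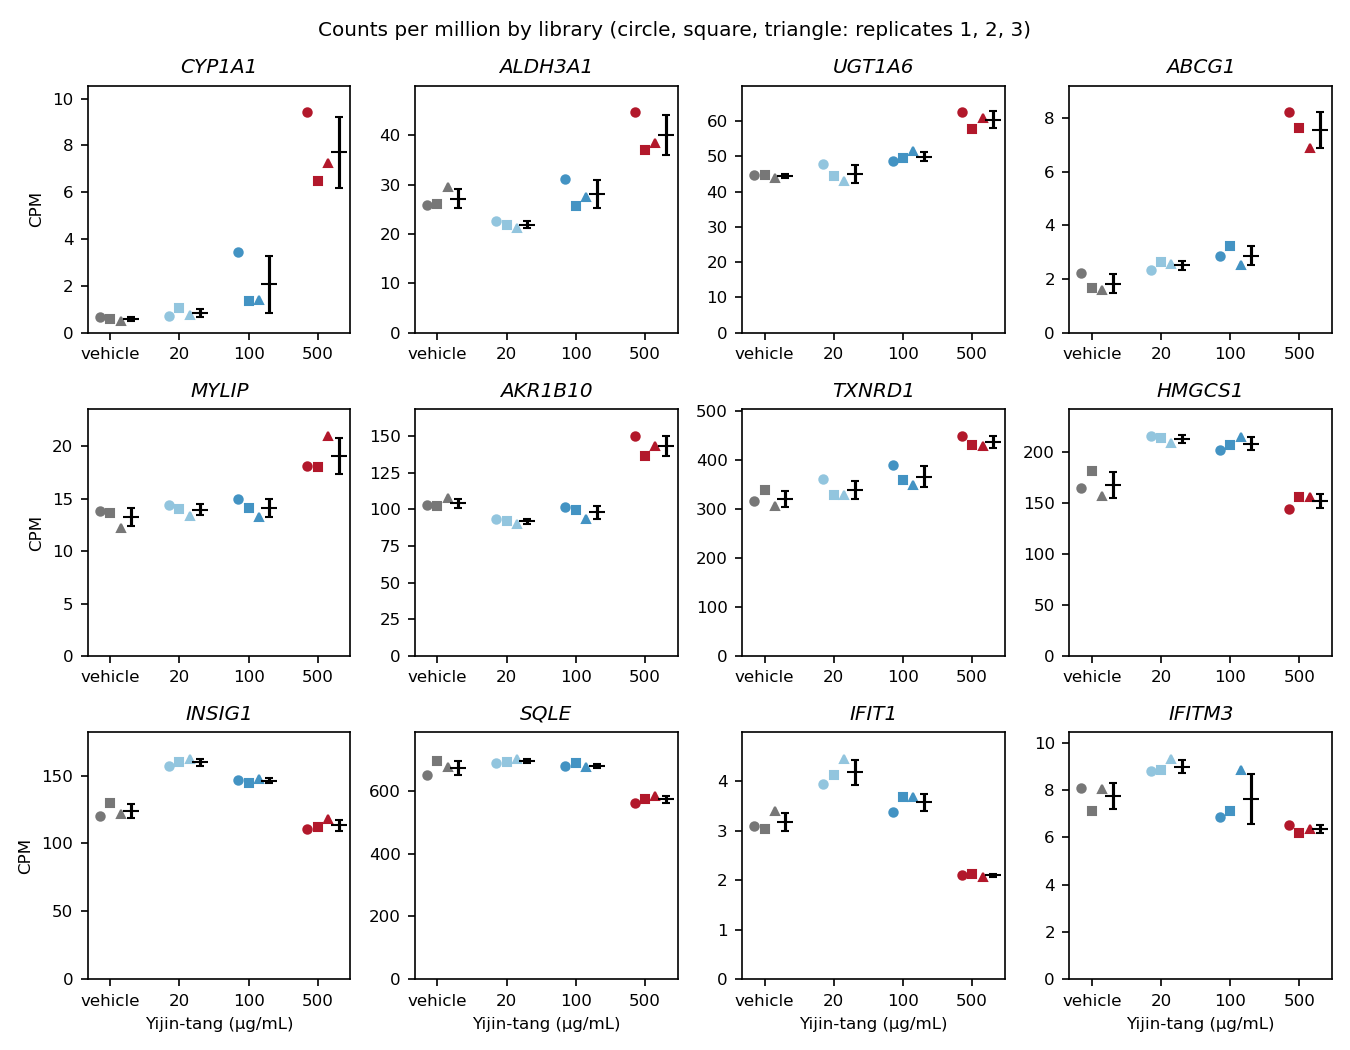
CPM of 12 genes in each library with vehicle and with 20, 100 and 500 µg/mL of Yijin-tang; circle, square and triangle are replicates 1, 2 and 3, and the black mark with its bar is the mean ± SD (n = 3). At 500 µg/mL CYP1A1 sits between 6.48 and 9.41 CPM and ABCG1 between 6.87 and 8.21 CPM, above all libraries at the other doses, while HMGCS1, INSIG1 and IFIT1 sit below all libraries at 20 and 100 µg/mL.

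The growth genes moved little. Over all 15882 genes tested, 0.724% rose and 7999 had a positive value. Of 35 DNA replication genes tested, 4 rose and none fell, with a median log2 fold change of 0.123 and all 35 above 0. Without vehicle libraries in the fit 11 of them rose, and with only the 6 libraries compared 14 did. Over all genes, 368 and 428 rose in those fits, against 115 in the main fit. ORC6, a subunit of the origin recognition complex, had 42.3, 42.0 and 43.1 CPM at 500 µg/mL, against 37.0, 34.9 and 34.7 CPM at 20 µg/mL, a log2 fold change of 0.26 ± 0.05 (adjusted p = 0.00408). MCM2 and MCM4, helicase subunits, and RRM2, of ribonucleotide reductase, had log2 fold changes of 0.16, 0.12 and 0.14 (adjusted p = 0.0244, 0.0488 and 0.027), and with no TMM scaling none of these 3 passed, nor did MCM4 with the replicate block (adjusted p = 0.0583). None of 32 mitosis genes passed, although all 32 had a positive value and 28 were higher with no overlap between doses, against 12.1% of all genes tested. MKI67, a proliferation marker, had 1082, 1151 and 1019 CPM at 500 µg/mL, against 996, 1012 and 966 CPM at 20 µg/mL (log2 fold change 0.13 ± 0.05, adjusted p = 0.278). Without vehicle libraries in the fit 11 of the mitosis genes passed, with only the 6 libraries in it 13 passed, and the list's median log2 fold change lay between 0.0952 and 0.112 over all alternatives tried.

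**Figure D4:**
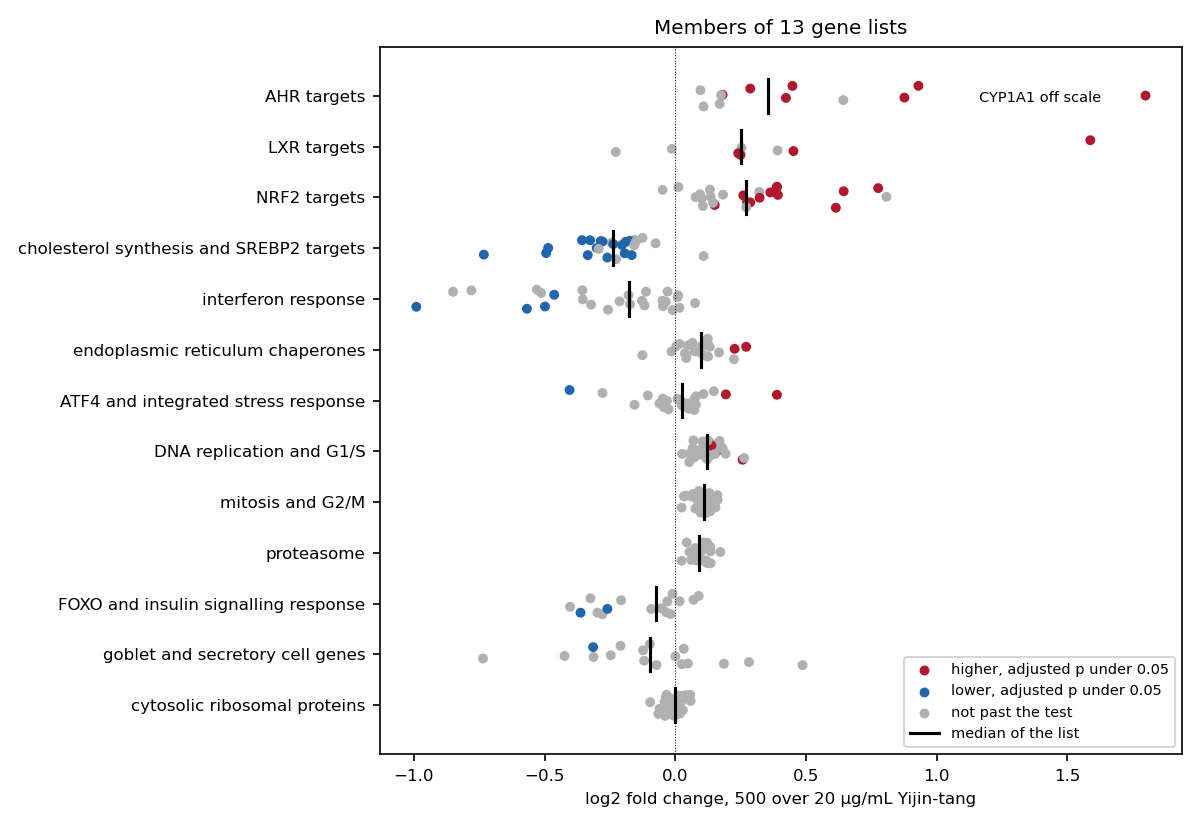
Log2 fold change at 500 over 20 µg/mL of Yijin-tang for the tested members of 13 gene lists, with 1 point per gene, red and blue for genes past the test and a black line at each list's median; CYP1A1, at 3.21, is drawn at the right edge. AHR, LXR and NRF2 targets lie mostly right of 0 and cholesterol synthesis left of 0, while the 38 cytosolic ribosomal protein genes cluster at 0.

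Protein folding and stress genes gave few calls, where 0.724% of all genes tested were higher and 1.13% lower. Of 22 endoplasmic reticulum chaperone genes tested 2 rose: HSPA5, the main chaperone of that compartment, had 506, 506 and 511 CPM at 500 µg/mL, against 424, 416 and 421 CPM at 20 µg/mL (log2 fold change 0.27 ± 0.04, adjusted p = 0.000457), and its cofactor DNAJB11 had a log2 fold change of 0.23 (adjusted p = 0.0176). Without vehicle libraries in the fit, and with only the 6 libraries compared, 10 of these 22 genes were higher. Over all genes, 368 and 428 were higher in those fits, against 115 in the main fit. Among 25 genes of the ATF4 list, SLC7A11 and SLC3A2, which pair as amino acid exchangers, rose, and DDIT4, an inhibitor of mTORC1, fell. DDIT4 had 11.2, 11.1 and 11.5 CPM at 500 µg/mL, against 16.1, 13.7 and 15.2 CPM at 20 µg/mL, a log2 fold change of -0.40 ± 0.08 (adjusted p = 0.00284). DDIT3, the death-linked factor of this response, had a log2 fold change of -0.05 ± 0.13 (adjusted p = 0.938). With all 21 libraries in the fit none of the heat shock, metallothionein, proteasome or ribosome biogenesis genes passed, nor any of the immediate early, ERK feedback and YAP lists.

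Genes of differentiated gut cells were mostly below the test, where 0.724% of all genes tested were higher and 1.13% lower. MUC13, a membrane mucin, had 84.7, 90.1 and 85.9 CPM at 500 µg/mL, against 109.9, 108 and 106 CPM at 20 µg/mL (log2 fold change -0.31 ± 0.06, adjusted p = 0.00413), and was the 1 of 17 goblet and secretory genes to pass. VIL1, the brush border protein villin, had 139.8, 142 and 145 CPM at 500 µg/mL, against 162, 159 and 163 CPM at 20 µg/mL (log2 fold change -0.18 ± 0.04, adjusted p = 0.0187), and was the 1 of 14 enterocyte genes to pass. Of those 14 genes, 3 were higher and 2 lower with no overlap between doses, against 12.1% and 10.9% of all genes tested. The higher ones were KRT20, CEACAM6 and FABP1, with log2 fold changes of 0.16, 0.26 and 0.57, and none of them passed. ATOH1, the factor that sets secretory fate, had a log2 fold change of -0.42 ± 0.16 (adjusted p = 0.229), and MUC2, the main gel-forming mucin, of -0.31 ± 0.22 (adjusted p = 0.649). Of 15 WNT target and stem cell genes 1 rose and none fell, with 11 negative values and a median of -0.0857. That gene, LGR5, a stem cell receptor, had a log2 fold change of 0.19 (adjusted p = 0.0426), and the call was lost in 9 of 15 alternatives, DESeq2 and each left-out library among them, while AXIN2, the usual WNT readout, had 0.03 (adjusted p = 0.876). KLHL24 and CCNG2, induced by FOXO factors, fell by 0.36 and 0.26 on the log2 scale (adjusted p = 0.00252 and 0.00964), 2 of 16 genes of that list. CDKN1A, the p53-induced cell cycle inhibitor, did not pass (log2 fold change 0.07, adjusted p = 0.842), and BTG2, another p53 target, fell by 0.41 (adjusted p = 5.24e-05).

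Transport and receptor genes made up further single calls. SLC2A1, the basal glucose transporter, had 518, 511 and 508 CPM at 500 µg/mL, against 462, 443 and 453 CPM at 20 µg/mL (log2 fold change 0.18 ± 0.04, adjusted p = 0.0133). SLC5A1, the sodium-coupled glucose transporter of the gut, had 8.31, 7.68 and 8.75 CPM at 500 µg/mL, against 11.5, 11.2 and 11.5 CPM at 20 µg/mL (log2 fold change -0.46 ± 0.10, adjusted p = 0.0139). The 2 glucose carriers thus moved in opposite directions, each with no overlap between doses. UGT1A1, the bilirubin glucuronosyltransferase, had a log2 fold change of 0.32 (adjusted p = 0.000341), EGFR of 0.15 (adjusted p = 0.0105), the glycolytic PFKP of 0.20 (adjusted p = 0.00811), the lysosomal galactosidase GLA of 0.28 (adjusted p = 0.00639) and TUBA4A, an alpha tubulin, of 0.20 (adjusted p = 0.00408). LCN2, an iron-siderophore binder, fell by 0.21 (adjusted p = 0.0494, and 0.057 with the replicate block), and CXCL8, a neutrophil chemokine, had 0.17 (adjusted p = 0.521). In all, 65 of 661 list genes tested passed, against 1.86% of all genes tested, and 230 of the genes that changed were in no list. The lists were chosen with earlier results of these data known. These shares therefore cannot decide whether list genes changed more often than others, and the same holds for the single lists above.

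Among genes past the test with at least 2 CPM and no overlap between doses, the largest rises after CYP1A1, ABCG1 and CYP1B1 included PHLDB2, ADGRF1, SLC22A3, ITGB7, CAV1, PIM1 and AKAP12, with log2 fold changes from 0.51 to 0.89. ADGRF1, an adhesion G protein-coupled receptor, had 65.0, 55.4 and 60.6 CPM at 500 µg/mL, against 37.0, 35.1 and 36.3 CPM at 20 µg/mL (log2 fold change 0.74 ± 0.08, adjusted p = 4.31e-06). SLC22A3 is an organic cation transporter, CAV1 the main coat protein of caveolae and PIM1 a serine/threonine kinase. Under the same limits the largest falls outside the lists included LINC03040 (-0.95), the long non-coding RNA LINC00261 (-0.58), the iodotyrosine deiodinase IYD (-0.82), the kinase MAP2K6 (-0.71), the urea transporter SLC14A1 (-0.68), ANXA13 (-0.66), FAM131B (-0.65), CCDC88B (-0.65), the sulfotransferase CHST3 (-0.63), the sulfate transporter SLC26A2 (-0.61) and QPRT (-0.59), all as log2 fold changes past the test. ANXA13, an annexin of the gut, had an adjusted p of 0.0363, and 0.0566 with the replicate block.

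The middle dose was set between the ends to see where along the range the change lay. At 100 against 20 µg/mL no gene passed (0%), where 509 had an unadjusted p under 0.05 and DESeq2 and limma voom called 0 as well. At 500 against 100 µg/mL 100 genes passed (0.63%), 42 higher (0.264%) and 58 lower (0.365%). That count fell to 21, 55 and 41 without replicate 1, 2 or 3 at 500 µg/mL, and to 72, 33 and 26 without replicate 1, 2 or 3 at 100 µg/mL. Those 2 comparisons share the 20 µg/mL or 500 µg/mL libraries with the main one, so their values stand side by side only. CYP1A1 had a log2 fold change of 1.92 at 500 over 100 µg/mL (adjusted p = 0.0168) and 1.29 at 100 over 20 µg/mL. HMGCS1 had -0.45 at 500 over 100 µg/mL (adjusted p = 0.000356) and -0.03 at 100 over 20 µg/mL, and MYLIP had 0.44 (adjusted p = 0.00135) and 0.01. For these 2 genes nearly the whole difference lay in the upper step. AKAP7, an anchor of protein kinase A, had -0.54 in the upper step (adjusted p = 0.0158) and 0.01 in the lower, whereas IRF9 had -0.07 (adjusted p = 0.938) and -0.40.

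Soshiho-tang, given at the same doses, served to test which changes differed between the formulas. The change at 500 against 20 µg/mL differed between the formulas for 727 genes (4.58%), with Yijin-tang above Soshiho-tang for 385 (2.42%) and below it for 342 (2.15%). Among the 295 genes past the test in Yijin-tang, the difference passed for 147: it passed for 62 that rose less and 76 that fell less than with Soshiho-tang, and for 9 whose change with Yijin-tang was the stronger or ran the other way. They included, named after their values were seen, ABCG1, ALDH1A1 and LGR5, which were higher, and CYP51A1, DDIT4, NEU1, SEC24D and SQLE, which were lower. For the other 148 the difference did not pass, which does not show that the formulas acted alike.

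ABCG1 had the largest difference of the 9. Against 7.57 ± 0.67 CPM at 500 and 2.51 ± 0.161 CPM at 20 µg/mL of Yijin-tang, it averaged 3.38 ± 0.343 CPM at 500 and 2.65 ± 0.308 CPM at 20 µg/mL of Soshiho-tang (SD, n = 3 each), a difference between the log2 fold changes of 1.24 ± 0.20 (adjusted p = 0.000119). ABCA1 differed by 1.23 ± 0.20 (adjusted p = 0.000182): it averaged 8.10 and 6.18 CPM at 500 and 20 µg/mL of Yijin-tang, and 4.05 and 7.23 CPM at 500 and 20 µg/mL of Soshiho-tang. Of the 8 LXR targets, 3 had a change with Yijin-tang above that with Soshiho-tang and none below, against 2.42% and 2.15% of all genes tested. SQLE averaged 574 and 696 CPM at 500 and 20 µg/mL of Yijin-tang, and 694 and 698 CPM at 500 and 20 µg/mL of Soshiho-tang, a difference of -0.27 ± 0.06 (adjusted p = 0.00265), and CYP51A1 differed by -0.25 ± 0.06 (adjusted p = 0.00533).

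AHR and NRF2 targets went the other way. Of the 12 AHR targets, 8 had a change with Yijin-tang below that with Soshiho-tang and none above, and of the 25 NRF2 targets 17 lay below and none above. Over all genes tested, 2.15% lay below and 2.42% above. CYP1A1 averaged 7.72 and 0.835 CPM at 500 and 20 µg/mL of Yijin-tang, and 128 and 1.03 CPM at 500 and 20 µg/mL of Soshiho-tang, a difference of -3.73 ± 0.76 on the log2 scale (adjusted p = 0.00877, and 0.0697 without replicate 2 at 20 µg/mL of Yijin-tang). HMOX1 averaged 11.9 and 9.52 CPM at 500 and 20 µg/mL of Yijin-tang, and 24.2 and 9.61 CPM at 500 and 20 µg/mL of Soshiho-tang (difference -1.02 ± 0.13, adjusted p = 3.9e-06). ATOH1 averaged 3.30 and 4.42 CPM at 500 and 20 µg/mL of Yijin-tang, and 0.824 and 4.12 CPM at 500 and 20 µg/mL of Soshiho-tang (difference 1.87 ± 0.27, adjusted p = 4.28e-05). NOX1, a superoxide-making oxidase of colon epithelium, differed by 1.68 ± 0.14 (adjusted p = 3.06e-09): its log2 fold change was -0.45 with Yijin-tang and -2.13 with Soshiho-tang. For cholesterol synthesis 4 of the 25 genes (SQLE, CYP51A1 and the sterol carrier STARD4 among them) had a change with Yijin-tang below that with Soshiho-tang, and 1, TM7SF2, had a change above it.

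**Figure D5:**
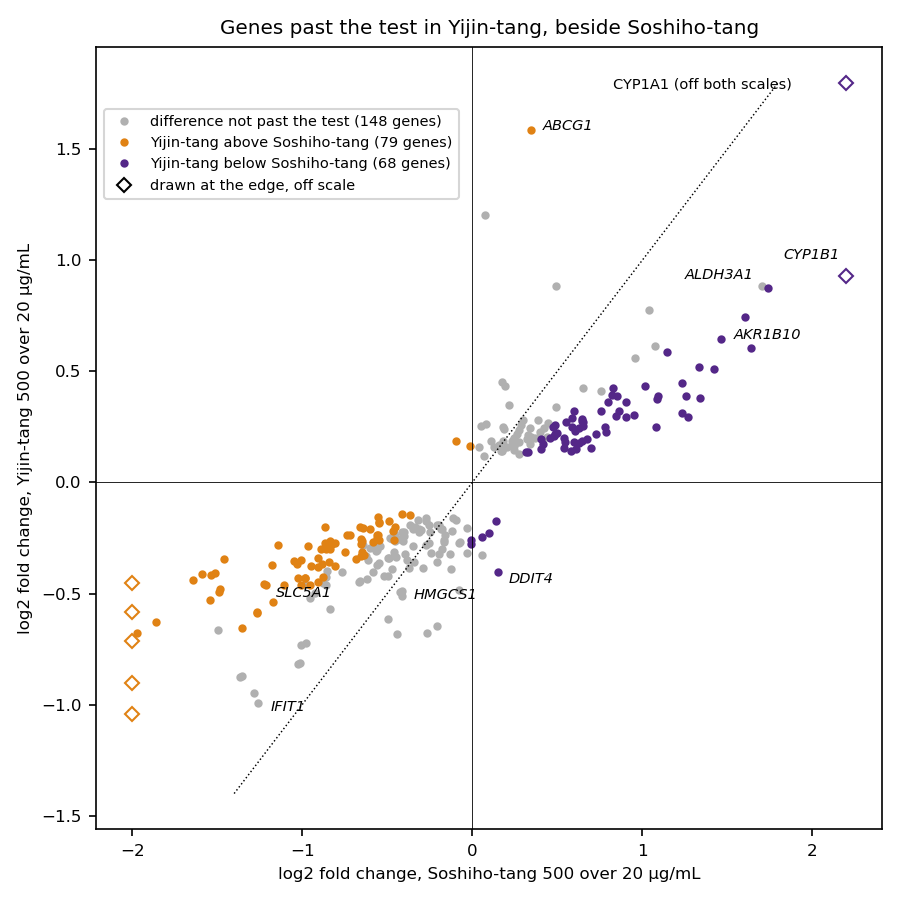
Log2 fold change at 500 over 20 µg/mL of Yijin-tang (vertical) against that of Soshiho-tang (horizontal) for the 295 genes past the test in Yijin-tang, coloured by the test of the difference; open diamonds are 7 genes off scale, drawn at the edge, and the dotted line marks equal change. Of the genes whose difference passed, 79 lie above and 68 below that line, most of them nearer to 0 with Yijin-tang than with Soshiho-tang, and ABCG1, at 1.59 with Yijin-tang and 0.34 with Soshiho-tang, lies farthest above it among the genes that rose.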

How the data were processed

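RNA of HT29 cells was sequenced from directional libraries as 100 bp read pairs, from RNA with an integrity number above 7, per the labels' protocols. Per the submitters' processing notes the tools included RSEM 1.3.3 and STAR 2.7.3a, beside Trim Galore 0.6.5 and FastQC 0.11.9, with the build GRCh38. The annotation release is not given in the sources used here. Deposited by the authors was 1 table of expected counts per gene, where 9.518% to 11.52% of values per library were not whole, and these were rounded to whole numbers first. Of its columns, 30 without a name were not used. Symbols came from the table and, for 497 of 41706 identifiers, from GENCODE 29.

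Genes were kept by filterByExpr, leaving 15882 of 60675, libraries were scaled by TMM, and edgeR 4.0.16 in R 4.3.3 was used for a quasi-likelihood test with 1 mean per group in 21 libraries (vehicle, and 3 doses each of Yijin-tang and Soshiho-tang, 3 libraries each, 14 residual degrees of freedom). P-values were adjusted by Benjamini-Hochberg over all genes tested, with a threshold of 0.05. Errors of log2 fold changes are standard errors from that fit, and CPM errors are SDs. The difference between formulas was an interaction term in the same fit. Alternatives were RLE scaling, library totals, no filter, DESeq2 1.42.0, limma 3.58.1 voom, fits without vehicle or with only the groups compared, a replicate block, no mitochondrial genes and leaving out each replicate. On simulated counts for 500 against 20 µg/mL (15703 genes) the test recovered 66% of genes changed 1.25-fold and 88% at 1.5-fold. It recovered 98% at 2-fold and 100% at 3-fold, with 9 false calls. The changed genes were drawn only from those with at least 2 CPM, so these shares do not cover lower genes. Apart from the changed genes at 500 µg/mL, all groups were simulated with a common mean per gene. The shares are split by fold only, not by expression level. How far they and the false calls hold for the measured libraries was not tested.

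Replicate numbers come from the library titles. Deviations of same-numbered libraries from their group means were correlated. Over genes with a mean of at least 2 CPM (12011 genes) the correlations were 0.0812 to 0.187, against -0.114 to 0.0161 for other pairs. With at least 8 CPM (9721 genes) they were 0.194 to 0.286, against -0.184 to -0.0303 for other pairs. The numbers may thus pair the libraries, although 1 correlation at the lower minimum is under 0.1. The main fit did not use this pairing, so its counts and p-values are unpaired. Pairing entered only through the replicate block among the alternatives. Replicates of a group differed beyond sampling noise, with a chi-square of 2.69 to 7.02 per degree of freedom, so none was counted as a repeat.

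Named genes were, by size of log2 fold change, 15 in each direction that passed with at least 2 CPM and no overlap between doses, up to 5 members of each list by adjusted p, a set of fixed markers, and the 5 largest in each direction of the other comparisons. ADH1C, ALDH1A1, ALPG, GCLM, KIFAP3, LSS, MSMO1, NEU1, OAS2, PMVK, SEC24D, SQSTM1, SRXN1, STARD4 and TM7SF2 fall outside that rule and were chosen after their values were seen. Some genes that the rule names are not reported here. The comparison, its members and the gene lists were chosen with earlier results of these data known. Promoters are RefSeq sequences on GRCh38.p14, matched by symbol, and were found for 10923 of the genes tested.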

Additional observations from a re-analysis of the deposited data

Results flagged for a closer look

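The genes below had a change at 500 against 20 µg/mL that differed between Yijin-tang and Soshiho-tang, by the interaction term of edgeR's quasi-likelihood test at an adjusted p under 0.05. Each value is the log2 fold change of Yijin-tang minus that of Soshiho-tang, and no explanation was tested.

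Among AHR, NRF2, PXR and CAR targets the difference was below 0 for CYP1A1 (-3.73), CYP1B1 (-1.63), ALDH1A3 (-1.05), HMOX1 (-1.02), SLC7A11 (-0.87), ALDH3A1 (-0.86), AKR1B10 (-0.82), TIPARP (-0.78), GCLM (-0.70), SQSTM1 (-0.59), GCLC (-0.54), TXNRD1 (-0.54), UGT1A1 (-0.43), SRXN1 (-0.37), NQO1 (-0.36) and GSR (-0.22). In sterol genes it was below 0 for STARD4 (-0.29), SQLE (-0.27) and CYP51A1 (-0.25), and above 0 for TM7SF2 (0.31), SREBF1 (0.43), ABCA1 (1.23) and ABCG1 (1.24). In stress, transport, growth factor and replication genes it was below 0 for EREG (-0.83), DDIT4 (-0.56), SLC3A2 (-0.48), SLC2A1 (-0.45), EGFR (-0.39), PFKP (-0.34), HSPA5 (-0.28) and RRM2 (-0.19), and above 0 for CCNG2 (0.29), SLC5A1 (0.77) and BTG2 (1.10). In gut differentiation, stem cell and innate defence genes it was above 0 for LGR5 (0.29), VIL1 (0.37), LCN2 (0.39), MUC13 (0.43), IRF9 (0.55), EPHB3 (0.91), OAS2 (1.39), NOX1 (1.68) and ATOH1 (1.87). Not all members of these lists went that way. Enterocyte genes past the test were 3 above and 3 below 0, with KRT20 (-0.39) and CEACAM6 (-0.41) among those below. Goblet and secretory genes were 5 above and 1 below, and interferon-stimulated genes 3 above and 1 below. Over all genes tested, 2.42% passed above 0 and 2.15% below. Among the other genes named it was below 0 for TLR6 (-1.37), SLC22A3 (-1.03), AKAP12 (-0.92), ADGRF1 (-0.86), PIM1 (-0.81), ITGB7 (-0.55), NEU1 (-0.32) and SEC24D (-0.30), and above 0 for ALDH1A1 (0.17), QPRT (0.68), FAM131B (0.70), AKAP7 (1.01), CHST3 (1.23), MAP2K6 (1.29), SLC14A1 (1.29), NEURL1 (1.57), LINC00261 (1.67), ADH1C (2.09) and CD200 (2.11).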

How the results depend on the processing

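The count of 295 genes at 500 against 20 µg/mL of Yijin-tang was 297 with RLE scaling, 253 with library totals, 381 with no filter on low counts, 305 with DESeq2, 278 with limma voom, 328 with the replicate block (287 of them shared) and 299 without mitochondrial genes. Without vehicle in the fit it was 726 (368 higher, 358 lower, 138 in the gene lists), with 221 genes at 500 against 100 µg/mL and 1339 differing between formulas. With only the groups compared it was 869 (428 higher, 441 lower, 167 in the lists), with 5 genes at 100 against 20 µg/mL, 242 at 500 against 100 µg/mL and 1352 differing between formulas. With no filter, 4 genes passed at 100 against 20 µg/mL and 163 at 500 against 100 µg/mL. The cause of these shifts was not tested.

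Leaving out 1 replicate gave 147 to 222 genes (56 to 75 higher, 84 to 147 lower, 45 to 54 in the lists), 0 to 0 at 100 against 20 µg/mL, 21 to 72 at 500 against 100 µg/mL, 551 to 631 differing between formulas, and -1.59 to -0.475 percentage points for the mitochondrial share. These fits hold fewer samples.

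Of 100 genes followed through the alternatives, 79 passed, 45 of them in all 15 alternatives, and 34 lost the call in at least 1, with directions kept. KIFAP3, KRT20, CEACAM6 and FABP1, also named in the text, were not followed. DDIT3, not past the test, was -0.05 with all libraries, 0.0022 without replicate 1 at 500 µg/mL and otherwise negative, down to -0.1405, with 1 replicate left out. With the replicate block CYP1B1, SLC7A11, MCM4, LCN2 and ANXA13 lost the call (adjusted p = 0.0599, 0.0609, 0.0583, 0.057 and 0.0566), SREBF1 and OAS2 gained it (0.00906 and 0.0177), the difference of ALDH1A1 lost it (0.0586), and no other call of the genes followed changed. Depth limits the precision of low genes, and its part in the calls was not tested.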

Other observations

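All 25 proteasome genes had a positive log2 fold change at 500 over 20 µg/mL of Yijin-tang, with a median of 0.0913 and none past the test, and 15 of them were higher with no overlap between the doses, against 12.1% of all genes tested. Without vehicle in the fit 6 of the 25 passed, and with only the 6 libraries compared 7 passed. Over all genes, 368 and 428 were higher in those fits, against 115 in the main fit. Ribosome biogenesis genes, which build ribosomal RNA and its subunits, were positive in 21 of 23, with a median of 0.0813 and none past the test, against 4 without vehicle in the fit and 7 with only the 6 libraries compared. The 38 cytosolic ribosomal proteins had a median of -0.000667 and the 30 nuclear genes of the respiratory chain a median of 0.0157.

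Of the 13 mitochondrially encoded genes 11 were negative, with a median of -0.113 and none past the test. KIFAP3, named after its values were seen, had a log2 fold change of -0.32 with Yijin-tang (adjusted p = 0.0447) and 0.06 with Soshiho-tang.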
